A study of Homo sapiens with 4 samples.

Results

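The genes described here are 10 feedback regulators of the RAS-MAPK pathway: the phosphatase genes DUSP4, DUSP5 and DUSP6, the Sprouty genes SPRY2 and SPRY4, the Sprouty-related genes SPRED1 and SPRED2, the ETS transcription factor genes ETV4 and ETV5, and PHLDA1. They were taken as a named list, which was chosen with earlier results of these data known. Every probe set annotated to exactly 1 of the 10 genes was used, 28 probe sets of 54675 and 10 genes of 19775. DUSP5, SPRY2 and SPRY4 had 1 probe set each, and the others had 2 to 6. RNA of 2 human colorectal cancer cell lines was measured on 4 Affymetrix arrays, with 1 array for each title. The titles of the HCT116 arrays are HCT116-Vec and HCT116-CDX1, and those of LS174T, a mucin-producing line, are LS174T-siVec and LS174T-siCDX1. The titles were read as control cells and cells with added CDX1 for HCT116, and as control cells and a CDX1 knockdown for LS174T. The labels gave neither the constructs nor the number of clones or cultures. CDX1 is a homeobox transcription factor of intestinal epithelium, and the study asked whether it controls the keratin gene KRT20.

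The RAS-MAPK pathway carries growth factor signals from receptor tyrosine kinases through RAS, RAF and MEK to the kinase ERK. Active ERK induces the genes of its own inhibitors, so their transcripts are widely used as a readout of pathway output. The DUSP proteins remove the activating phosphates from ERK, DUSP6 in the cytoplasm and DUSP4 and DUSP5 in the nucleus. Sprouty and SPRED proteins act further up and dampen the activation of RAS and RAF. ETV4 and ETV5 are transcription factors of the PEA3 family that are switched on by receptor and ERK signalling, and PHLDA1 encodes a pleckstrin-homology protein that is induced by mitogens.

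All levels are RMA expression on the log2 scale, in which background is subtracted, arrays are brought to a common distribution and probes are summarised. Each gene was read from its brightest probe set, by the mean of the 4 arrays. It was taken as measured where the brighter of 2 arrays stood at 6 or more, and "rose" and "fell" are used for differences of at least 1 in size on the log2 scale, which is 2-fold. With 1 array per title no difference between 2 arrays has a replicate check, no p-value was computed for it, and precision is limited by the number of arrays. As a yardstick of array noise, the 18 spike-in control probe sets differed with a standard deviation of 0.12 within the HCT116 pair, 0.07 within the LS174T pair and 0.10 between the vector arrays. They carry no variation between cultures. A lower level can stand for fewer expressing cells or for less RNA per cell, which cannot be told apart here.

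CDX1 and KRT20 were read first as a check of the titles. The CDX1 level was 8.21 in HCT116-Vec, 8.24 in HCT116-CDX1, 10.46 in LS174T-siVec and 9.06 in LS174T-siCDX1. CDX1 was thus lower in the knockdown, while its probe set gave no sign of added CDX1 in HCT116, and every direction in that pair rests on the title of the array labelled HCT116-CDX1. KRT20 went from 6.36 to 9.38 between HCT116-Vec and HCT116-CDX1 and from 8.15 to 5.45 between LS174T-siVec and LS174T-siCDX1. Array medians ran from 7.04 to 7.06. Of 12 markers of colorectal epithelium, 12 stood at 6 or more on each array. So did 16625 to 16716 of all 19775 genes, by array. The level was also reached by 6 or 7 of 8 fibroblast, 6 or 7 of 9 leukocyte and 6 of 8 endothelial markers. These counts alone therefore do not tell cell types apart. The summed level of 8 fibroblast markers lay between 10.45 and 10.54 and that of 8 endothelial markers between 10.11 and 10.17 on the log2 scale. That of 9 leukocyte markers was 10.10 and 10.04 for HCT116 against 11.80 and 12.17 for LS174T, control first. Most of the latter excess was lysozyme (LYZ), which Paneth cells of the intestine also make, at 11.25 and 11.74 in LS174T against 4.97 and 5.21 in HCT116. The pan-leukocyte gene PTPRC ran from 6.51 to 6.85 and the endothelial cadherin gene CDH5 from 5.40 to 5.70 over the 4 arrays.

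The promoter letters of 6 members were at hand in 9 RefSeq windows of GRCh38.p14, each reaching from 250 bases before a transcript start to 50 after it. The 3 members that rose or fell within a pair and had a window are shown, as the 250 bases before the start, 5′ to 3′ on the gene's strand. They let a reader set the promoter beside the response. DUSP6 lies on the minus strand at chr12:89352502-89352751, SPRY4 on the minus strand at chr5:142324248-142324497 and SPRED1 on the plus strand at chr15:38252586-38252835. Capitals in DUSP6 mark CTTCCG, the reverse complement of CGGAAG, the shorter of the ETS letter runs searched. Those in SPRY4 mark the partial cyclic-AMP response site TGACG. SPRED1 held neither of these runs, and still shorter ETS letters were not searched or marked.
DUSP6: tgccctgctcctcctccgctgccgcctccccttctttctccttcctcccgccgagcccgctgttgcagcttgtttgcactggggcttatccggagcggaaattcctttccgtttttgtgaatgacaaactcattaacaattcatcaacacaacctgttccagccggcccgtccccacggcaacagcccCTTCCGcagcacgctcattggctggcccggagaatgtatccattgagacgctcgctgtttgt
SPRY4: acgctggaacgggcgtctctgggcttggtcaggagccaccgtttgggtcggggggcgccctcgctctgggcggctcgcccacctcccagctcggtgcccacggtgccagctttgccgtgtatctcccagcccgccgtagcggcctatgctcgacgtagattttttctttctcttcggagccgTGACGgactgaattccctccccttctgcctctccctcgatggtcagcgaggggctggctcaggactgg
SPRED1: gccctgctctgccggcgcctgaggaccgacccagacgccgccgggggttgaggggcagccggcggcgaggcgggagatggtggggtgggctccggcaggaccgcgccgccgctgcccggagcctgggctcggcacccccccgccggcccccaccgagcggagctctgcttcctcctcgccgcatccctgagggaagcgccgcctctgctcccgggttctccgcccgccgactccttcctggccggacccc

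The windows were searched on both strands for letters of factors with a link to CDX1 or to ERK. TTTATG, a form of the CDX site, was in 0 of 9 member windows and in 10.6% of all 35116 windows. TTTATA, another form, was in 1 of 9, a second SPRED2 window, against 11.5%. The ETS site CCGGAAG was in 0 of 9 against 10.3%, the AP-1 site TGANTCA in 1 of 9, the same SPRED2 window, against 7.71%, and the full cyclic-AMP site TGACGTCA in 0 of 9 against 1.85%. CGGAAG and TGACG, which are contained in CCGGAAG and TGACGTCA, were chosen after the windows were seen. CGGAAG was in 3 of 9 windows, those of DUSP6, PHLDA1 and SPRED2, against 19.5% of all. TGACG was in 3 of 9, those of SPRY2, SPRY4 and SPRED2, against 24.6%. A match is a run of letters in a short window and not a binding site.

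DUSP6 had the largest difference of the 10 genes in the LS174T pair, and SPRY4 and ETV5 exceeded it in the HCT116 pair. Its level was 12.42 in HCT116-Vec, 13.12 in HCT116-CDX1, 11.60 in LS174T-siVec and 9.61 in LS174T-siCDX1. The knockdown array was the lowest of the 4 and the array labelled HCT116-CDX1 the highest. DUSP6 fell by 1.99 in LS174T-siCDX1, or 3.98-fold, and ranked 50 among the falls of 16896 measured genes. In HCT116 it was 0.69 higher on the array labelled CDX1, 1.62-fold, which is short of 2-fold. Its 3 probe sets ran the same way in each comparison. They gave differences of -1.99 to -1.88 in LS174T and of 0.69 to 1.07 in HCT116, so that 1 of the 3 passed 2-fold in HCT116.

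DUSP5, the nuclear phosphatase specific for ERK, stood at 11.86 in HCT116-Vec, 12.12 in HCT116-CDX1, 8.60 in LS174T-siVec and 7.39 in LS174T-siCDX1. Both HCT116 arrays lay far above both LS174T arrays. DUSP5 fell by 1.21 in the knockdown, 2.32-fold, and differed by 0.26 in HCT116. The LS174T-siVec level minus that of HCT116-Vec was -3.26, or 9.61-fold lower in LS174T, the largest difference of a member between the vector arrays.

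DUSP4, which acts on ERK and other MAP kinases in the nucleus, stood at 11.83 in HCT116-Vec, 11.85 in HCT116-CDX1, 9.12 in LS174T-siVec and 8.69 in LS174T-siCDX1. It too separated the lines: the difference between the vector arrays was -2.72, 6.58-fold lower in LS174T. Within the pairs it differed by 0.02 and -0.42. Its other 2 probe sets lay at -0.34 and -0.50 in HCT116, so the sign there depended on the probe set. All 3 lay below 0 in the LS174T pair, from -0.80 to -0.42, and from -2.72 to -1.34 between the vector arrays.

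**Figure D1:**
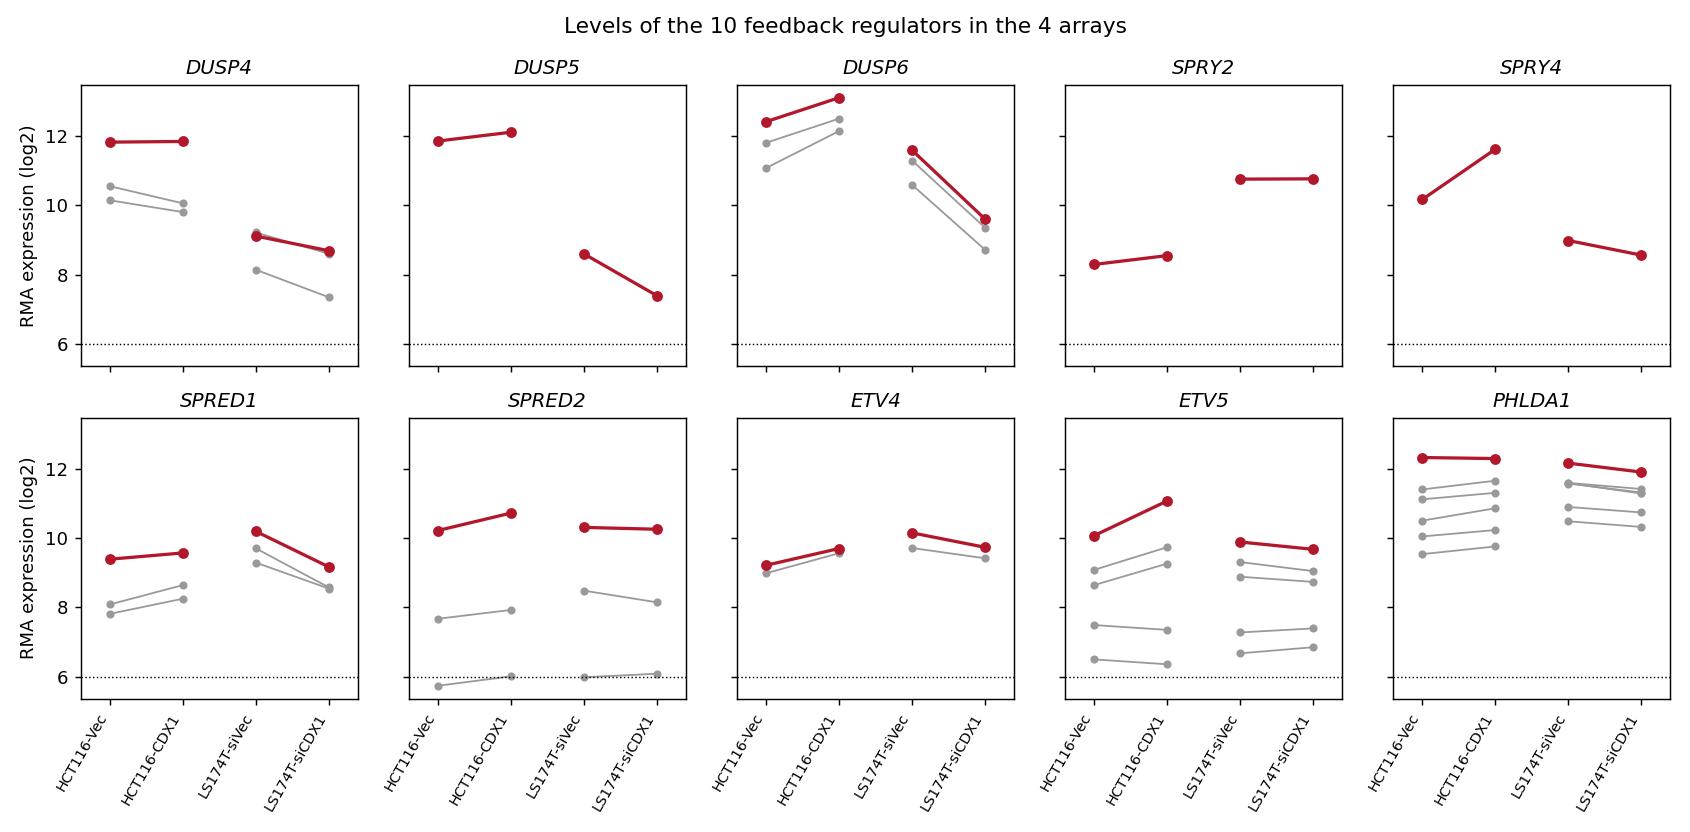
RMA expression (log2, vertical axis) of the 10 genes on the 4 arrays (horizontal axis). Each line joins the 2 arrays of a pair for 1 probe set, red for the probe set read for the gene and grey for the others, and the dotted line is the level of 6. DUSP6 drops from 11.60 to 9.61 in the LS174T pair, and SPRY4 climbs from 10.17 to 11.63 in the HCT116 pair.

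The 2 Sprouty genes ran opposite to each other between the lines. SPRY4 stood at 10.17 in HCT116-Vec, 11.63 in HCT116-CDX1, 8.99 in LS174T-siVec and 8.56 in LS174T-siCDX1. It rose by 1.46 on the array labelled HCT116-CDX1, 2.74-fold, and ranked 56 among the rises of 16914 measured genes. In LS174T it differed by -0.42, and LS174T-siVec minus HCT116-Vec was -1.19. SPRY2 stood at 8.29, 8.55, 10.76 and 10.77 in the same order of arrays. It differed by 0.26 within the HCT116 pair and by 0.01 within the LS174T pair, and was 2.47 higher in LS174T-siVec than in HCT116-Vec, 5.54-fold. SPRY2 was thus high in the line where SPRY4 was low. Each is read by a single probe set, and that of SPRY4 is marked as shared between transcripts.

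Of the SPRED genes, which encode membrane-bound inhibitors of RAF activation, SPRED1 fell in the knockdown. Its level was 9.40 in HCT116-Vec, 9.58 in HCT116-CDX1, 10.20 in LS174T-siVec and 9.18 in LS174T-siCDX1. The siVec array was the highest, and the knockdown array lay below both HCT116 arrays. It fell by 1.03, or 2.04-fold, just past the limit, and it lay short of 2-fold at -0.97 after quantile normalization and at -0.97 as the mean of probe sets. The 3 probe sets gave -1.13, -1.03 and -0.75. In HCT116 the 3 probe sets lay between 0.18 and 0.56. They were 0.81 to 1.90 higher in LS174T-siVec than in HCT116-Vec, and 2 of them, not the one read for the gene, passed 2-fold. SPRED2 stayed short of 2-fold in each comparison, at 10.23 and 10.73 in HCT116-Vec and HCT116-CDX1 and 10.32 and 10.26 in LS174T-siVec and LS174T-siCDX1. Its differences were 0.50 in HCT116, -0.05 in LS174T and 0.09 between the vector arrays. The 3 probe sets of SPRED2 ran from 0.25 to 0.50 in HCT116, from -0.34 to 0.10 in LS174T and from 0.09 to 0.81 between the vector arrays.

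ETV5 rose on the array labelled HCT116-CDX1, at the very limit of the rule. It stood at 10.08 in HCT116-Vec, 11.08 in HCT116-CDX1, 9.90 in LS174T-siVec and 9.68 in LS174T-siCDX1, so that 1 array was above the other 3. The rise of 1.003 was 2.004-fold and ranked 155, the last of the 155 genes that rose. Of its 5 probe sets, the 3 brightest were 0.62 to 1.003 higher and the 2 dimmest lay at -0.14. In LS174T they ran from -0.26 to 0.18. ETV4 stood at 9.22 in HCT116-Vec, 9.71 in HCT116-CDX1, 10.16 in LS174T-siVec and 9.74 in LS174T-siCDX1. It was lowest in HCT116-Vec and differed by 0.49, -0.42 and, between the vector arrays, 0.94, each short of 2-fold, and both of its probe sets ran the same way in each comparison.

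PHLDA1 as read had the smallest range of the 10 members over the 4 arrays, 0.42. Its levels were 12.34 in HCT116-Vec, 12.31 in HCT116-CDX1, 12.18 in LS174T-siVec and 11.92 in LS174T-siCDX1. All 6 probe sets lay below 0 in the LS174T pair, from -0.30 to -0.16. In HCT116 5 of 6 lay above 0, up to 0.36, while the one read for the gene was at -0.03. In LS174T-siVec against HCT116-Vec they ran from -0.16 to 1.09, with 5 of 6 above 0 and 1 past 2-fold.

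**Figure D2:**
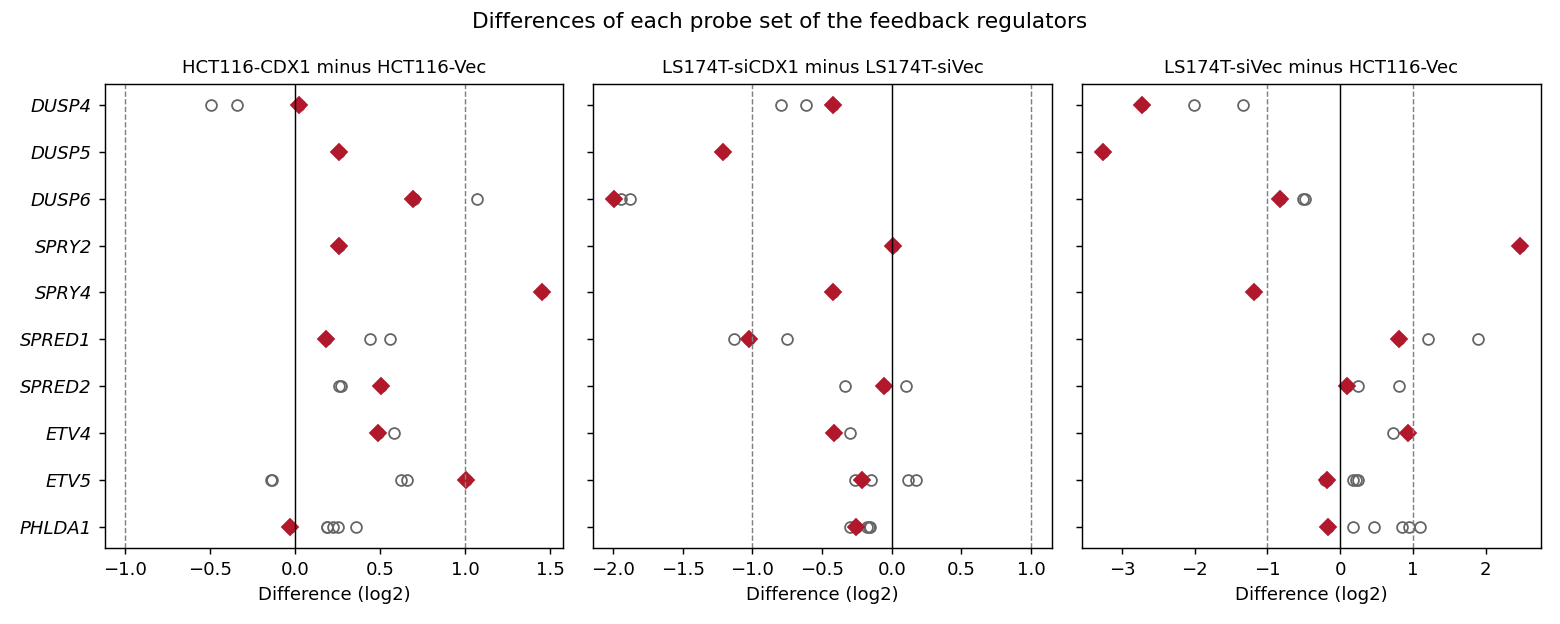
Difference on the log2 scale (horizontal axis) of every probe set of the 10 genes (vertical axis) in 3 comparisons of 2 arrays. Filled diamonds are the probe sets read for the genes, open circles the others, and dashed lines mark 2-fold. The 3 probe sets of DUSP6 lie together at -1.99 to -1.88 in the LS174T pair, whereas those of ETV5 spread from -0.14 to 1.003 in the HCT116 pair.

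Counted together, the 10 genes were mostly higher on the array labelled HCT116-CDX1 and mostly lower in LS174T-siCDX1. Because the list was chosen with earlier results of these data known, counts set beside the shares of all genes are a description and not a test. In HCT116, 2 of 10 rose, SPRY4 and ETV5, 0 fell and 9 lay above 0, beside 0.916% of all 16914 measured genes that rose and 0.97% that fell. The median was 0.37, against -0.01 over all genes. Of the 28 probe sets 23 lay above 0, and 3 were at least 2-fold higher, beside 0.933% of all probe sets with 1 gene. ETV5 was not among the rises after equal array medians, with probe sets averaged, or without shared probe sets, where it lay at -0.14, and SPRY4 has no other probe set. In LS174T, 3 of 10 fell, DUSP6, DUSP5 and SPRED1, 0 rose and 9 lay below 0, beside 1.25% of all 16896 genes that fell and 0.598% that rose. The median was -0.42, against -0.01 over all genes, and 24 of 28 probe sets lay below 0. At least 2-fold lower were 6 of them, 3 of DUSP6, 2 of SPRED1 and that of DUSP5, beside 1.14% of all probe sets.

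Markers of colorectal epithelium moved with these counts within both pairs. In the LS174T pair 12 of 12 lay below 0, with a median of -0.72. Of them 4 fell, KRT19, LGALS4, KRT8 and GPA33, beside 1.25% of all measured genes. KRT19 was at -0.75 averaged over 2 probe sets of opposite sign. The summed level of the markers went from 15.94 to 15.10 on the log2 scale. In the HCT116 pair 11 of 12 lay above 0, with a median of 0.32 and 1 rise, CDH17, beside 0.916% of all measured genes. The summed level there went from 15.17 to 15.42. In LS174T-siVec minus HCT116-Vec 10 of 12 lay above 0, with a median of 0.85. The median of the feedback regulators there was -0.17, or 0.22 as the mean over probe sets. The part of the epithelial markers in the differences of the feedback regulators was not tested.

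The signs in both pairs, which share no array, were set side by side. DUSP4, DUSP5, DUSP6, SPRY4, SPRED1, SPRED2, ETV4 and ETV5, 8 of 10, were higher on the array labelled HCT116-CDX1 and lower in LS174T-siCDX1, a pattern held by 23.5% of the 16530 genes measured in both pairs. SPRY2 was higher in both and PHLDA1 lower in both as read, but PHLDA1 lay above 0 in HCT116 under 3 other settings, up to 0.20, and SPRY2 was at -0.02 in LS174T with equal array medians. None of the 10 passed 2-fold in both pairs: the members past it in HCT116, SPRY4 and ETV5, were at -0.42 and -0.21 in LS174T, and those in LS174T, DUSP6, DUSP5 and SPRED1, were at 0.69, 0.26 and 0.18 in HCT116. Averaged over probe sets, DUSP4 lay at -0.27 in HCT116. That of SPRED2 in LS174T was positive under 1 other setting, at up to 0.03, and that of ETV5 in LS174T was 0.12 without shared probe sets.

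**Figure D3:**
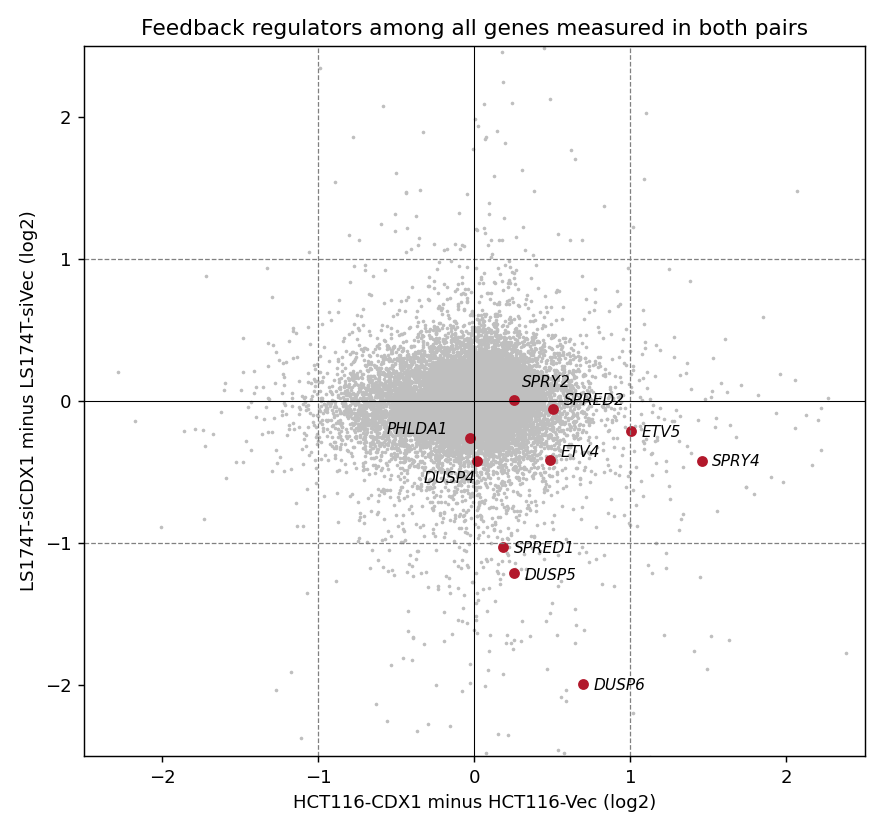
Difference within the HCT116 pair (horizontal axis, log2) against difference within the LS174T pair (vertical axis, log2) for genes measured in both, grey points, with the 10 feedback regulators in red. Dashed lines mark 2-fold, and 42 genes lie outside the plotted range of 2.5 in size. Of the 10 genes 8 lie at the lower right of the origin, and none lies past both 2-fold lines.

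All 4 arrays were also fitted together with limma over 17280 genes, with terms for the cell line and the CDX1 label. This left 1 residual degree of freedom, and p-values were adjusted over all genes by Benjamini-Hochberg. HCT116-CDX1 and LS174T-siVec carry the CDX1-higher label by their titles. The label is not the measured CDX1 level, which was 8.24 in HCT116-CDX1 and 9.06 in LS174T-siCDX1. For the CDX1 label, 0 of 10 members passed an adjusted p of 0.05, and 0% of all genes did. The unadjusted p was under 0.05 for 4 of 10 members, DUSP5, DUSP6, SPRY4 and ETV4, and for 518 of 17280 genes, 3% of them. DUSP6 had the largest estimate, 1.34 ± 0.34 (SE) higher with the CDX1-higher label, and an adjusted p of 0.999. No test of whether the pairs differ could be fitted, since it would leave no residual degree of freedom.

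For DUSP4, DUSP5, SPRY2 and ETV4 the difference between the vector arrays was larger in size than that within either pair. Of the 10 members 3 were at least 2-fold lower in LS174T-siVec, DUSP5, DUSP4 and SPRY4, than in HCT116-Vec, beside 7.33% of 17043 measured genes. SPRY2 was the 1 member at least 2-fold higher, beside 6.03%. The median was -0.17, against 0.01 over all genes, and it was 0.22 as the mean over probe sets, so it has no settled sign. These arrays also serve as the controls of both pairs, so the comparisons are not independent of each other.

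In the limma fit the line term passed for 5 of 10 members, beside 16.1% of 17280 genes. Arrays of a line carry different modifications and are not replicate cultures. SPRY2 was higher in LS174T by 2.34 ± 0.16 (SE; adjusted p = 0.00328, 0.00125 to 0.00494 over 9 other settings). Lower in LS174T were DUSP4, by an estimate of -2.94 ± 0.17 (adjusted p = 0.00252), DUSP5, by -3.998 ± 0.27 (adjusted p = 0.00326), SPRY4, by -2.13 ± 0.29 (adjusted p = 0.0156), and DUSP6, by -2.17 ± 0.34 (adjusted p = 0.0226). DUSP6 was the exception: the difference of its vector arrays was -0.82, while HCT116-CDX1 and LS174T-siCDX1 lay 3.51 apart. Without the array labelled HCT116-CDX1, HCT116 has 1 array, assumed to vary like the others, and the spread comes from the 2 differently modified LS174T arrays alone. The DUSP6 estimate was then -1.82 ± 0.89 (SE) with an adjusted p of 0.255, and over 9 other settings its adjusted p ran from 0.00973 to 0.255. That of SPRY4 was -1.40, more than 1.5 times smaller than with all arrays, with an adjusted p of 0.0324 (0.00797 to 0.0463 over 8 other settings). In the limma fit of all 4 arrays, SPRED1, SPRED2, ETV4, ETV5 and PHLDA1 had estimates of 0.20, -0.19, 0.49, -0.79 and -0.28. Their adjusted p values there were 0.101 to 0.666. Without the array labelled HCT116-CDX1 the estimates were 0.29, 0.06, 0.73, -0.29 and -0.29 in the same order, so that of SPRED2 changed sign.

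The rest of the pathway was read from 6 further lists. The relatives of the members, 13 genes of the same DUSP, Sprouty, SPRED, ETV and PHLDA families, held 0 that rose or fell in either pair. Their medians were -0.15 in HCT116, opposite in sign to that of the 10 members, and -0.12 in LS174T, the same sign as theirs. In LS174T 9 of 13 relatives lay below 0 and 4 above. SPRY1 differed by -0.16 and -0.02, ETV1 by -0.66 and 0.23, PHLDA2 by -0.34 and -0.74, and the stress-induced phosphatase gene DUSP1 by -0.15 and 0.51. DUSP9 at -1.73 and DUSP1 at -1.07 were lower in LS174T-siVec than in HCT116-Vec, and DUSP16, a phosphatase of JNK and p38, was higher at 1.23. Averaged over its 4 probe sets, DUSP16 was at 0.9997, just short of 2-fold. The sign of DUSP1 depended on the probe set, with 2 of 3 below 0.

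Upstream of RAS, 5 of 9 listed EGF-family ligands were measured in HCT116, with 3 above 0 and a median of 0.29, and 6 in LS174T, with 6 below 0 and a median of -0.33. EGF fell in LS174T-siCDX1, from 6.79 to 5.34, the latter under the level of a measured gene. TGFA, an EGFR ligand, was at 0.68 in HCT116 and -0.55 in LS174T, the same signs as DUSP6, and HBEGF at -0.04 and -0.65. Among 10 growth factor receptors 0 fell or rose in HCT116, where 9 lay above 0 and the median was 0.40, and the median in LS174T was 0.13. In LS174T-siCDX1 EGFR was 1.22 higher and FGFR1 1.07 higher. The 9 probe sets of EGFR ran from -0.13 to 1.22 and averaged 0.28, and the 7 of FGFR1 ran from -0.02 to 1.07 and averaged 0.49, so neither rise held as a mean over probe sets. Of the vector arrays, LS174T-siVec had ERBB3 higher at 1.92 and ERBB2 at 1.39, and FGFR1 at -2.89 and FGFR4 at -1.51 were lower. Averaged over probe sets these were 1.10, 1.03, -1.30 and -0.92, so that of FGFR4 was short of 2-fold.

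The adaptors, exchange factors and GTPase activators, with 10 of 12 measured in HCT116, held 1 rise there, the RAS exchange factor gene SOS2 at 1.12 (0.49 averaged over 6 probe sets), and 0 changes in LS174T. In LS174T-siVec 5 were at least 2-fold lower than in HCT116-Vec and 1 higher, beside 7.33% and 6.03% of all measured genes. Among the lower ones, CBL at -0.41 and RASAL1 at -0.60 were short of 2-fold when averaged over probe sets. ERRFI1, an ERK-induced inhibitor of EGFR, had the largest difference of this list, from 12.78 in HCT116-Vec to 9.57 in LS174T-siVec. RASGRP1 at -1.81 and SHC1 at -1.39 were also lower, and GAB1 at 1.38 was higher. RASGRP1 stood at 6.28 in HCT116-Vec, close to the level of 6, and at 4.47 in LS174T-siVec, under it. Averaged over 7 probe sets, of which 1 lay below 0, GAB1 was at 0.93, short of 2-fold. The kinase core from RAS to ERK, of which 9 of 14 listed genes were read, held 0 rises and 0 falls within either pair, with medians of -0.05 and -0.01. MAP2K1, which encodes MEK1, differed by -0.41 and -0.01, and MAPK3, which encodes ERK1, by 0.13 and -0.29. Set between the vector arrays, the scaffold gene KSR1 was at -1.55, with 2 of its 4 probe sets above 0, and the kinase gene RPS6KA1 at 1.02.

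Of 19 other ERK target genes measured, 14 lay below 0 in LS174T-siCDX1, with a median of -0.46. Of these 3 fell and 0 of the list rose, beside 1.25% and 0.598% of all measured genes. The 3 were the chemokine gene CXCL8 at -1.32 and the early response genes EGR1 at -1.08 and IER3 at -1.07. Averaged over its 3 probe sets, which ran from -1.08 to -0.42, EGR1 was at -0.85, short of 2-fold. In HCT116 0 rose and 1 fell, EMP1 at -2.01, and the median was 0.09. FOS was higher in both pairs, by 0.99 and 0.93, both short of 2-fold, whereas EGR1 was 0.83 higher in HCT116. Between the vector arrays 8 of 19 were at least 2-fold lower in LS174T and 0 higher, beside 7.33% and 6.03% of all measured genes. The largest were HMGA2 at -3.57, EMP1 at -2.82, the AP-1 gene FOSL1 at -2.59 and the urokinase receptor gene PLAUR at -2.33. Averaged over probe sets, HMGA2 at -0.94 and EGR1 at -0.93 were short of 2-fold, so the count of 8 depends on the probe sets read. For HMGA2 8 of 9 probe sets lay below 0, and those of TRIB1, another of the 8, ran from -3.28 to 0.31.

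**Figure D4:**
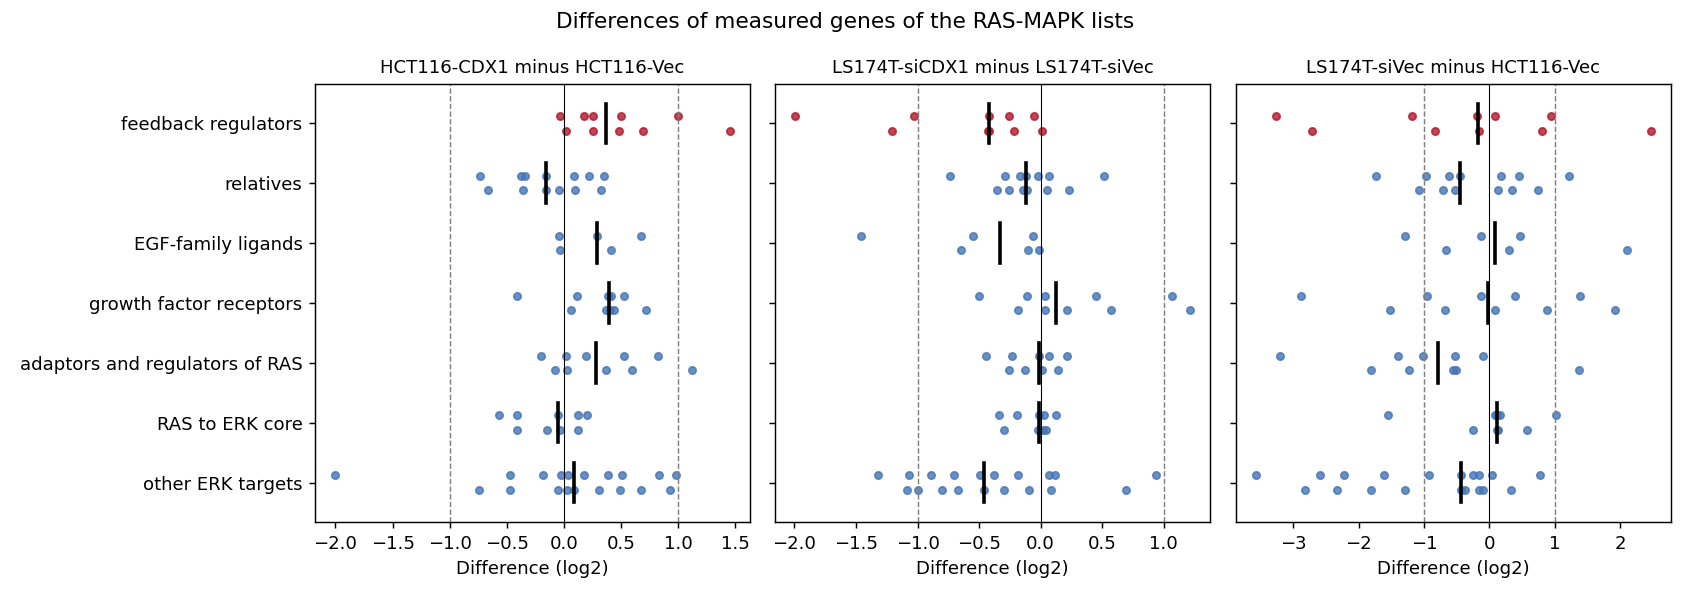
Difference on the log2 scale (horizontal axis) of each measured gene of 7 RAS-MAPK lists (vertical axis) in 3 comparisons of 2 arrays, with the feedback regulators in red, black bars for list medians and dashed lines at 2-fold. In the LS174T pair the medians of the feedback regulators and of the other ERK targets lie at -0.42 and -0.46, and that of the kinase core at -0.01.

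The genes whose 4 levels ran most like those of DUSP6 were found by the Euclidean distance of their centred levels among 17270 other genes. GPRC5A, which encodes an orphan receptor induced by retinoic acid, was the closest at a distance of 0.31, with levels of 11.66 in HCT116-Vec, 12.22 in HCT116-CDX1, 10.53 in LS174T-siVec and 8.45 in LS174T-siCDX1. TTC39A followed at 0.50, PDE9A at 0.54, OGFRL1 at 0.54 and the long noncoding RNA gene UCA1 at 0.59. All 5 were more than 2-fold lower in LS174T-siCDX1, from -2.08 for GPRC5A to -1.42 for UCA1, and lay above 0 in HCT116. TTC39A, PDE9A and OGFRL1 stood under 6 in LS174T-siCDX1. With 4 arrays such likeness is a description.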

How the data were processed

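Total RNA of 4 modified cell lines was labelled as biotinylated cRNA and hybridised to 1 array each, per the labels' protocols. The deposited values were log2 expression that the authors obtained with RMA, per the submitters' processing notes; its version, and which arrays it normalised as a set, is not given in the sources used here. Values ran from 3.20 to 14.62 and were used as deposited. Of 54675 probe sets, 41097 had 1 gene in the platform annotation and only these were named; symbols were checked against RefSeq of GRCh38.p14, where 41043 matched by gene identifier. Array values have no genome build; coordinates belong to RefSeq promoter windows.

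Named were the 10 members with all probe sets, up to 4 changed genes of each other list and comparison, and the 5 nearest profiles to DUSP6. SPRY1, ETV1, PHLDA2, TGFA, HBEGF, MAP2K1, MAPK3, FOS, CD3E and TEK were added after their values were seen. So were the HCT116 value of EGR1 and the HCT116 and LS174T values of DUSP1. The members and lists were chosen with earlier results of these data known. Differences and motif searches were computed in Python 3.11.15 (pandas 2.3.3, numpy 2.4.6, statsmodels 0.14.6) and the 4-array fit in limma 3.58.1 under R 4.3.3, tested on simulated data. Alternatives were other floors (none, 7), normalizations, probe set rules, fold thresholds (1.5, 3) and limma settings.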

Additional observations from a re-analysis of the deposited data

How the results depend on the processing

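Of 207 differences of single members under 7 other floors, normalizations and probe set rules, 186 moved by less than the standard deviation of the spike-in probe sets. That count is not a measure of stability, since a floor leaves the levels as they are and equal medians shift all genes alike. With the mean of probe sets, 15 differences moved by more and 15 by less. Among the 207 the sign changed in 11, of which 1 was of a gene that rose or fell: ETV5 in HCT116 was -0.14 without probe sets marked as shared (_x_at and _s_at). The others were of differences short of 2-fold, of DUSP4, SPRY2, SPRED2, ETV5 and PHLDA1, the furthest that of PHLDA1 between the vector arrays, from -0.16 to 0.56 with the mean of probe sets. Leaving out shared probe sets drops the probe set read for ETV5 and the only one of SPRY4. The number of members at least 2-fold higher in HCT116, 2 in the report, was 1 with equal array medians and 1 with the mean of probe sets, and 0 without shared probe sets and 0 at 3-fold. The number at least 2-fold lower in LS174T, 3 in the report, was 1 at 3-fold, DUSP6, and 2 without SPRED1 after quantile normalization, with the loess removed and with the mean of probe sets; the same 3 genes remained under the other 4 floors, normalizations and probe set rules. Between the vector arrays the members at least 2-fold higher, 1 in the report, were 2 with the mean of probe sets, SPRY2 and SPRED1, and 3 at 1.5-fold; the median was 0.22 with the mean of probe sets. In limma, 0 members were called for the CDX1 label under all 8 other settings, and 4 or 5 for the line under 9, 1 of which, leaving out the array labelled HCT116-CDX1, was chosen after the data were seen. Dropping the CDX1 term gave DUSP6 an adjusted p of 0.0968 in the line fit. The labels give no replicate numbers; the limma fit of the CDX1 label holds the cell line as a block, and it called 0 members with that block and 0 without it. The lowest level of a member as read was 7.39, DUSP5 in LS174T-siCDX1, above the floors of 6 and 7. On that array the leukocyte marker CD3E at 8.07 and the endothelial marker TEK at 8.55 read higher than DUSP5. PTPRC at 6.85 and CDH5 at 5.40 read lower. Whether background limited the size of the DUSP5 fall was not tested. In addition, 1 probe set of SPRED2 lay near 6.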
